A study of Mus musculus with 70 samples.

Results

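The genes Pacsin2, Dpy19l3, Csdc2, Ttc9, Lhpp, Tspan11, Colq, 5930438M14Rik, Cpne4 and Zfp365 were examined as a set of 10 among the 50789 genes of a mouse RNA-seq count table. Each was among the strongest responders to loss of the long Capicua isoform in brain, or among the genes that differed most between loss of the long and of the short isoform, with genes of the extracellular matrix left out. Measured values therefore chose them. Pacsin2, Dpy19l3 and Csdc2 had the 3 smallest p-values between the knockouts in cortex, Lhpp and Ttc9 the second and the third smallest in cerebellum, and Zfp365 the third smallest in lung. Tspan11 had the smallest p-value for a difference of the long-isoform effect between cortex and cerebellum. Fold changes were ranked only among genes past an adjusted p of 0.05 and above a floor on mean level. On these terms 5930438M14Rik and Colq had the second and the fourth largest fold change against wild type in cortex, and Cpne4 the fifth largest in cerebellum. Contrasts from libraries that chose a gene are given for it as a description, with no test.

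Mice without the short isoform (Cic-S-KO) and mice without the long isoform (Cic-L-KO) were compared with a single wild-type group (WT), pooled from the littermates of both lines. Lung was collected at postnatal day 6, and cortex and cerebellum from animals aged 12 weeks. There were 8 libraries in each of the 9 groups, apart from 7 in Cic-S-KO cortex and 7 in Cic-S-KO cerebellum, hence 70 in all. How either isoform was removed, the strain, and which line each WT animal came from are not given in the sources used here. The labels do not say that each library is a separate animal, so the p-values measure the spread between libraries.

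Capicua is a DNA-binding repressor with an HMG box. It recognises a short octamer in the promoters and enhancers of its targets, acts in a complex with ATXN1 or ATXN1L, and is released from many targets when receptor tyrosine kinases signal through RAS and ERK. Its isoforms start from different promoters and differ at the amino terminus. The 10 genes are of different kinds. Pacsin2 encodes an F-BAR protein that curves membranes in endocytosis and at caveolae. Dpy19l3 encodes a C-mannosyltransferase of the endoplasmic reticulum, and R-spondin 1 is among its substrates. Csdc2 encodes a cold shock domain protein that binds RNA, Ttc9 a protein with tetratricopeptide repeats, and Lhpp a phosphatase that removes phosphate from histidine. Tspan11 encodes a tetraspanin of the membrane, Colq the collagen tail that anchors acetylcholinesterase in the basal lamina of the neuromuscular junction, and Cpne4 a copine, a protein that binds phospholipid in the presence of calcium. Zfp365 encodes a zinc finger protein that binds DISC1, and 5930438M14Rik is annotated as a long intergenic non-coding RNA.

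Library totals lay between 17798655 and 35523037 counts, both in lung. In the cortex libraries totals were 20730808 to 32548951 counts, and in the cerebellum libraries 20440799 to 30464699. Lung carried the label of batch 1 and both brain regions that of batch 2, so a difference between lung and brain cannot be told apart from batch or age, and knockouts were compared within a tissue. The tissue labels matched their defining markers: 5 alveolar type 2 markers summed to 15455 to 19347 CPM (counts scaled to the library total) in WT lung and to no more than 101.1 CPM in any brain library, and 6 granule neuron markers summed to 4272 to 5571 CPM in WT cerebellum and to no more than 65.5 CPM in any cortex library. Cic RNA was summed over isoforms and so does not check the knockout labels. Cic in cortex stood between 150.3 and 173 CPM (median 161) in WT, between 237 and 260.5 (median 250.3) in Cic-S-KO, and between 269 and 318 (median 304) in Cic-L-KO. It was above WT in Cic-L-KO cortex (log2 fold change 0.88, SE 0.037, adjusted p = 9.49e-18, edgeR) and in Cic-S-KO cortex (0.63, SE 0.038, adjusted p = 1.35e-12, edgeR). In lung Cic was higher in Cic-S-KO (0.31, adjusted p = 6.41e-05, edgeR) and did not pass in Cic-L-KO (-0.039, adjusted p = 0.681, edgeR). In cerebellum it stood at 0.15 in both knockouts, with adjusted p = 0.0253 in Cic-L-KO and 0.05004 in Cic-S-KO (edgeR).

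Capicua acts through DNA, so the sequence around the transcription start is shown for 3 genes with many CG dinucleotides there and 1 with few. RefSeq windows of 300 bases (250 before the start to 50 after it, GRCm38.p6) were matched for 7 of the 10 genes, 10 windows in all. None of the 10 windows held any of the octamers TGAATGAA, TGAATGGA, TCAATGAA or TCAATGGA on either strand. Over all 32851 windows of that length, 3.84% held at least 1 of them. Absence of these letters from a window says nothing about binding elsewhere. The windows below are printed from 5′ to 3′ on the strand of the gene in lower case, with every CG in capitals.
Pacsin2 (chr15:83464557-83464856, minus strand): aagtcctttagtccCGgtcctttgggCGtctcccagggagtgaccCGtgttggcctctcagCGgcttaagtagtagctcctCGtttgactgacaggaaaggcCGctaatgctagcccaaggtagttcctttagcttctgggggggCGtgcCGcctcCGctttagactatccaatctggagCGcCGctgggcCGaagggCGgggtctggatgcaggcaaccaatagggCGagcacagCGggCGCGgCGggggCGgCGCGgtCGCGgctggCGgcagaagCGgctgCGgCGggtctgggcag
Dpy19l3 (chr7:35754405-35754704, minus strand): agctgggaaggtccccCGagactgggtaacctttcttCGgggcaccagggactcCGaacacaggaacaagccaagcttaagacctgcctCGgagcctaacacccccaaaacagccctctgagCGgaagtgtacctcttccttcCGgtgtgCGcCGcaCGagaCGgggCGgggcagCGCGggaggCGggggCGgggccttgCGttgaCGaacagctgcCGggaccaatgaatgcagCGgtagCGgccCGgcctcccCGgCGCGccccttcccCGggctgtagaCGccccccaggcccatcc
Ttc9 (chr12:81630999-81631298, plus strand): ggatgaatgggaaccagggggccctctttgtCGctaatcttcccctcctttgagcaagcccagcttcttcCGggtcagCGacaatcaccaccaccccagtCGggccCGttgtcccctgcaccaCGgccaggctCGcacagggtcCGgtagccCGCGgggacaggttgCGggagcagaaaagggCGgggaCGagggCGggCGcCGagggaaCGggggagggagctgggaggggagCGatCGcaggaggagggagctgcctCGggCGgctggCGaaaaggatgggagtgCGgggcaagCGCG
5930438M14Rik (chr13:101231877-101232176, plus strand): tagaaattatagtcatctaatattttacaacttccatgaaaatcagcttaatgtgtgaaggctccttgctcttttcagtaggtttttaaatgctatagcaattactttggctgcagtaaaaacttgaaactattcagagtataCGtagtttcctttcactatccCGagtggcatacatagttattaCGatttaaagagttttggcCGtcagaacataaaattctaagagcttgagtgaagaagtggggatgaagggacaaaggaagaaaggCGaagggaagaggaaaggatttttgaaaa
The printed window of Pacsin2 held 27 CG and was 65.3% G or C, whereas its other windows held 4 and 3 CG. That of Dpy19l3 held 26 CG and that of Ttc9 held 25, whereas that of 5930438M14Rik held 5 and was 35.7% G or C. The median over all windows was 7 CG and 52.7% G or C. Genes with dense and with sparse CG windows were thus both among the genes described next.

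Where the genes were expressed in WT mice was examined first, on a scale corrected for exon length (RPKM, which divides CPM by the exon length in kilobases). Zfp365 was the most abundant in cortex, at 174 ± 11.2 RPKM (SD, n = 8), and Csdc2 in cerebellum, at 67.4 ± 3.47 RPKM. In lung Pacsin2 stood highest, at 32.4 ± 1.69 RPKM. At the other end, 5930438M14Rik stood at 0.564 ± 0.129 RPKM in cortex and 0.550 ± 0.0547 in cerebellum, which do not differ beyond their spread. Colq stood at 0.311 ± 0.130 RPKM in cortex and 1.67 ± 0.216 in cerebellum. In lung 5930438M14Rik had 0 to 5 counts per WT library and failed the filter on low counts, so 9 of the 10 genes were tested there and all 10 in each brain region.

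**Figure D1:**
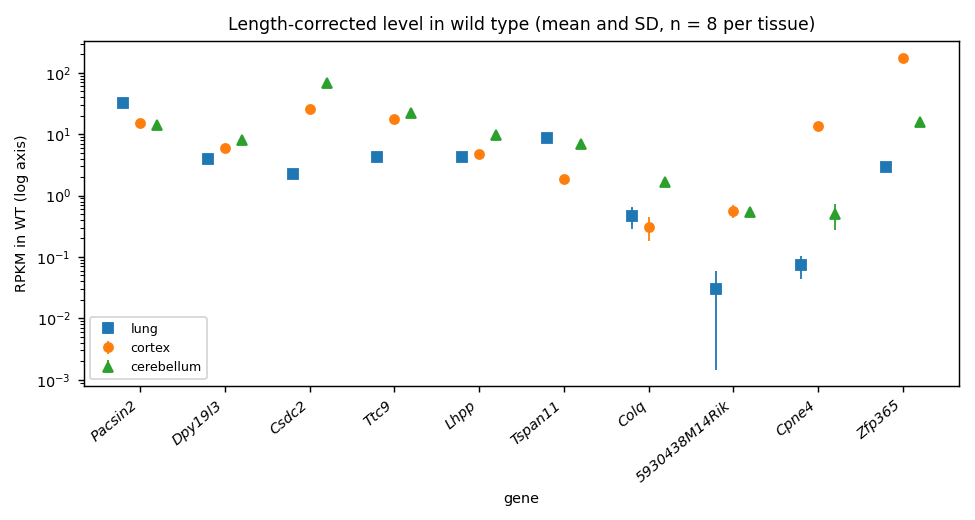
Level of each of the 10 genes in WT lung (squares), cortex (circles) and cerebellum (triangles), as the mean of 8 libraries with the SD as a bar, in RPKM on a log axis. Zfp365 and Cpne4 stand higher in cortex than in cerebellum, and Csdc2, Lhpp, Tspan11 and Colq stand lower.

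Between WT cortex and WT cerebellum the difference could be tested for the 6 genes chosen from contrasts without WT libraries. All 6 passed an adjusted p of 0.05 (edgeR quasi-likelihood test over 46 libraries), 2 higher and 4 lower in cortex, beside 73.5% of all genes. That test took cortex and cerebellum libraries as independent, although they may come from the same animals. Zfp365 was 11.8-fold higher in cortex (log2 fold change 3.57, SE 0.065, adjusted p = 5.69e-42, edgeR). Pacsin2 was only slightly higher in cortex (log2 fold change 0.17, SE 0.049, adjusted p = 0.00151, edgeR). Lower in cortex were Csdc2 (log2 fold change -1.33, SE 0.042), Lhpp (-0.94, SE 0.062), Dpy19l3 (-0.33, SE 0.054) and Ttc9 (-0.25, SE 0.029), with adjusted p from 1.11e-32 to 3.75e-07 (edgeR). The other 4 were chosen with WT libraries. Their log2 differences were 4.86 (SE 0.18) for Cpne4, -2.34 (SE 0.16) for Colq, -1.78 (SE 0.10) for Tspan11 and 0.12 (SE 0.18) for 5930438M14Rik.

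The values of each gene in the brain regions are described next, beginning with the count of genes whose libraries did not overlap WT. In Cic-L-KO cortex 6 genes (Pacsin2, Dpy19l3, Csdc2, Ttc9, Colq and 5930438M14Rik) stood above WT in every library and 2 (Tspan11 and Zfp365) below. Over all genes tested in cortex, 6% lay wholly above WT and 7.25% wholly below. The choice of genes used this contrast, so nothing is read from that comparison. RNA was taken from whole tissue, where fewer cells of a type and less RNA per cell cannot be told apart. All fold changes below are log2 values from edgeR with their standard error (SE), and CPM were scaled within each tissue. Differences of an effect between cortex and cerebellum, and their SE, also took the libraries of the regions as independent.

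Pacsin2 (ENSMUSG00000016664.16, chromosome 15, 83375607 to 83464606, minus strand, GRCm38, as for the positions below) was higher in Cic-L-KO cortex, at a fitted 1.90-fold of WT. In cortex it stood between 70.5 and 78.0 CPM (median 73.2) in WT, between 60.3 and 66.9 (median 65.4) in Cic-S-KO, and between 132 and 152 (median 139.5) in Cic-L-KO. No Cic-L-KO library overlapped WT, and every Cic-S-KO library lay below every WT library. The log2 fold change against WT was 0.92 (SE 0.032) in Cic-L-KO and -0.19 (SE 0.033) in Cic-S-KO. In cerebellum Pacsin2 stood between 58.5 and 81.1 CPM (median 70.9) in WT, between 68.2 and 89.3 (median 70.6) in Cic-S-KO, and between 69.2 and 89.1 (median 78.5) in Cic-L-KO. There the groups overlapped, with a log2 fold change of 0.20 (SE 0.062) in Cic-L-KO, and the difference between the Cic-L-KO effects in cortex and in cerebellum was 0.72 (SE 0.069).

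Dpy19l3 (ENSMUSG00000043671.14, chromosome 7, 35685165 to 35754454, minus strand, 10.4 Mb from Cic) had the same arrangement in cortex and was higher in Cic-L-KO cerebellum as well. It stood in cortex between 64.5 and 69.9 CPM (median 68.4) in WT, between 52.1 and 61.8 (median 55.9) in Cic-S-KO, and between 104 and 118 (median 113) in Cic-L-KO. The 3 groups did not overlap, with Cic-S-KO lowest and Cic-L-KO highest. The log2 fold change was 0.74 (SE 0.035) in Cic-L-KO and -0.26 (SE 0.037) in Cic-S-KO. In cerebellum Dpy19l3 stood between 73.2 and 102 CPM (median 90.6) in WT, between 85.2 and 102 (median 99.5) in Cic-S-KO, and between 102 and 137 (median 117) in Cic-L-KO. Here 7 of 8 Cic-L-KO libraries exceeded all WT libraries, for a log2 fold change of 0.38 (SE 0.064).

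Csdc2 (ENSMUSG00000042109.8, chromosome 15, 81936759 to 81950941, plus strand) was above WT in every Cic-L-KO library of both brain regions. In cortex it stood between 104 and 123 CPM (median 118) in WT, between 108 and 128 (median 115) in Cic-S-KO, and between 220.4 and 249.8 (median 227) in Cic-L-KO, a log2 fold change of 0.98 (SE 0.036) in Cic-L-KO and -0.02 (SE 0.038) in Cic-S-KO. In cerebellum it stood between 293 and 342 CPM (median 307) in WT, between 293 and 362 (median 324) in Cic-S-KO, and between 402 and 461 (median 419) in Cic-L-KO, a log2 fold change of 0.44 (SE 0.043) in Cic-L-KO. Even so, the cortex median of Cic-L-KO lay under the lowest WT library of cerebellum, so the regional order of Csdc2 was kept. Over the genes of the set, the non-overlapping count in cerebellum was 4 above WT (Csdc2, Lhpp, Ttc9 and Cpne4) and 0 below, beside 2.31% and 1.65% of all genes. Lhpp, Ttc9 and Cpne4 were chosen on these libraries, so nothing is read from that comparison either.

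Ttc9 (ENSMUSG00000042734.6, chromosome 12, 81631249 to 81667557, plus strand) had nearly the same Cic-L-KO difference in cortex and cerebellum. Ttc9 in cortex stood between 77.6 and 88.6 CPM (median 83.2) in WT, between 73.7 and 85.5 (median 79.6) in Cic-S-KO, and between 99.9 and 105 (median 103) in Cic-L-KO. Ttc9 in cerebellum stood between 97.9 and 109 CPM (median 106) in WT, between 87.6 and 97.3 (median 91.0) in Cic-S-KO, and between 126 and 140.1 (median 132) in Cic-L-KO. Libraries of Cic-L-KO lay above WT in both regions, and in cerebellum the Cic-S-KO libraries all lay below WT. The log2 fold change in Cic-L-KO was 0.31 (SE 0.032) in cortex and 0.33 (SE 0.029) in cerebellum, a difference of -0.018 (SE 0.041), while Cic-S-KO cerebellum stood at -0.19 (SE 0.03).

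Lhpp (ENSMUSG00000030946.13, chromosome 7, 132610638 to 132706420, plus strand, 107 Mb from Cic) was separated from WT in Cic-L-KO cerebellum and not in cortex. In cerebellum it stood between 19.8 and 26.6 CPM (median 23.2) in WT, between 22.4 and 26.1 (median 24.9) in Cic-S-KO, and between 45.7 and 57.9 (median 49.0) in Cic-L-KO. All 8 Cic-L-KO libraries lay far above WT and Cic-S-KO, for a log2 fold change of 1.12 (SE 0.053). In cortex Lhpp stood between 10.3 and 13.0 CPM (median 11.2) in WT, between 11.1 and 13.5 (median 11.8) in Cic-S-KO, and between 9.11 and 12.8 (median 9.96) in Cic-L-KO. The cortex groups overlapped, with a log2 fold change of -0.12 (SE 0.072) in Cic-L-KO, and the Cic-L-KO effects in cortex and cerebellum differed by -1.24 (SE 0.087). The gene Fgfr2 and the antisense transcript Gm15582 overlap Lhpp on the other strand, and whether counting used strand is not given in the sources used here, so part of the Lhpp value is uncertain. Fgfr2 itself rose by 0.19 on the log2 scale in Cic-L-KO cerebellum and by 0.26 in Cic-L-KO cortex. The part of Fgfr2 reads in the Lhpp values was not tested.

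**Figure D2:**
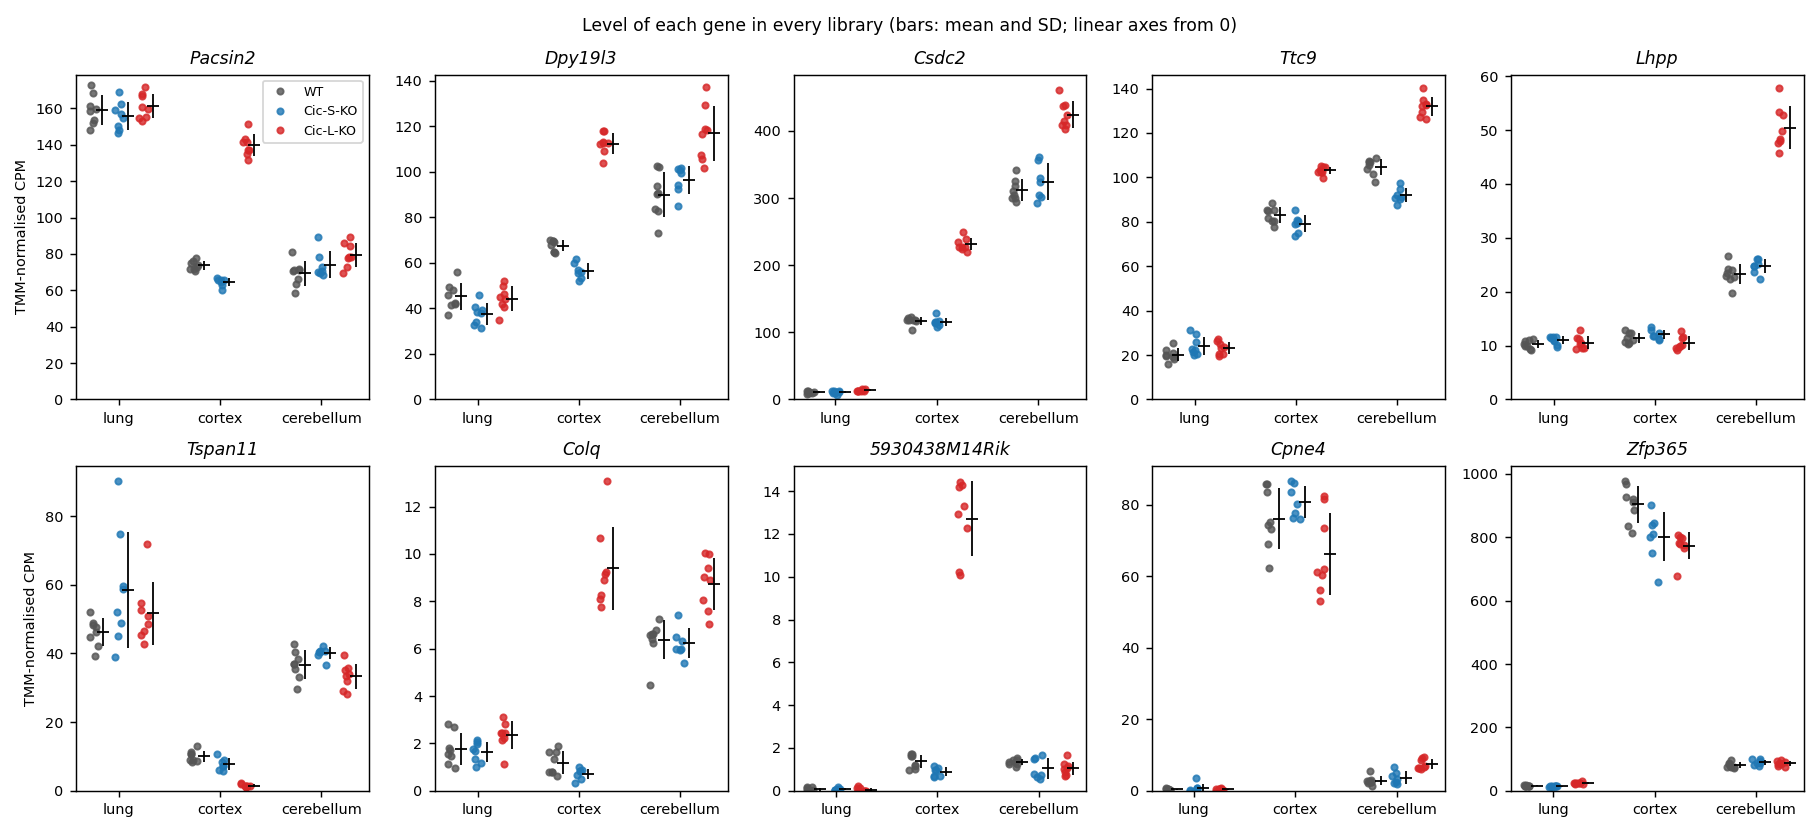
TMM-normalised CPM of the 10 genes in every library (points), by tissue and genotype, with the mean and SD of each group beside them, on linear axes that start at 0. Cic-L-KO libraries (red) do not overlap WT (grey) in cortex for Pacsin2, Dpy19l3, Csdc2, Ttc9, Tspan11, Colq, 5930438M14Rik and Zfp365, in cerebellum for Csdc2, Ttc9, Lhpp and Cpne4, and in lung for Zfp365.

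Tspan11 (ENSMUSG00000030351.5, chromosome 6, 127887589 to 127953977, plus strand) had the largest difference below WT among the 10 genes, and it had it in cortex. Tspan11 in cortex stood between 8.48 and 13.0 CPM (median 9.84) in WT, between 5.73 and 10.8 (median 7.15) in Cic-S-KO, and between 1.07 and 2.22 (median 1.33) in Cic-L-KO. The highest Cic-L-KO library held less than the lowest WT library, a 6.72-fold lower fitted level (log2 fold change -2.75, SE 0.15). In cerebellum Tspan11 stood between 29.6 and 42.7 CPM (median 36.9) in WT, between 36.6 and 42.0 (median 40.5) in Cic-S-KO, and between 28.1 and 39.5 (median 33.8) in Cic-L-KO. Those groups overlapped (log2 fold change -0.14, SE 0.065 in Cic-L-KO), which left a difference of -2.61 (SE 0.16) between the regions. In Cic-S-KO cortex, 5 of 7 libraries lay below all WT libraries (log2 fold change -0.38, SE 0.13). The antisense transcript Gm15870 lies across Tspan11 and held 316 counts over all 70 libraries (log2 fold change -2.94 in Cic-L-KO cortex), and without the strand setting its reads cannot be told apart from those of Tspan11.

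Colq (ENSMUSG00000057606.14, chromosome 14, 31523082 to 31591343, minus strand) was close to absent from WT cortex, with 15 to 47 counts per library, and clearly counted in Cic-L-KO cortex. Colq in cortex stood between 0.634 and 1.89 CPM (median 1.06) in WT, between 0.335 and 0.988 (median 0.819) in Cic-S-KO, and between 7.76 and 13.1 (median 9.03) in Cic-L-KO. All libraries of Cic-L-KO were above WT, at a fitted 7.90-fold (log2 fold change 2.98, SE 0.19). In cerebellum Colq stood between 4.47 and 7.26 CPM (median 6.601) in WT, between 5.38 and 7.43 (median 5.997) in Cic-S-KO, and between 7.05 and 10.03 (median 8.95) in Cic-L-KO. The median of Cic-L-KO cortex was thereby above that of WT cerebellum. In Cic-L-KO cerebellum 7 of 8 libraries exceeded all WT libraries (log2 fold change 0.46, SE 0.091), and the regional difference of the effects was 2.52 (SE 0.20). In Cic-S-KO cortex the log2 fold change was -0.70 (SE 0.24), with overlapping groups.

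5930438M14Rik (ENSMUSG00000114590.1, chromosome 13, 101232127 to 101247551, plus strand) had the largest Cic-L-KO fold change among the 10 genes. In cortex it stood between 0.973 and 1.72 CPM (median 1.42) in WT, between 0.622 and 1.15 (median 0.967) in Cic-S-KO, and between 10.1 and 14.4 (median 13.1) in Cic-L-KO. The lowest Cic-L-KO library held several times the CPM of the highest WT library, at a fitted 9.20-fold (log2 fold change 3.20, SE 0.13). In cerebellum it stood between 1.12 and 1.53 CPM (median 1.33) in WT, between 0.533 and 1.67 (median 0.766) in Cic-S-KO, and between 0.695 and 1.65 (median 1.02) in Cic-L-KO. The cerebellum groups overlapped (log2 fold change -0.35, SE 0.22 in Cic-L-KO), so the RNA was at a similar low level in WT of both regions and was separated from WT in cortex. In Cic-S-KO cortex it stood at -0.65 (SE 0.17) against WT on the log2 scale, with 4 of 7 libraries below all WT libraries.

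Cpne4 (ENSMUSG00000032564.16, chromosome 9, 104547286 to 105034544, plus strand) was abundant in cortex and scarce in cerebellum, and was apart from WT in Cic-L-KO cerebellum. In cerebellum it stood between 1.36 and 5.63 CPM (median 2.49) in WT, between 1.87 and 6.78 (median 3.32) in Cic-S-KO, and between 6.12 and 9.37 (median 6.71) in Cic-L-KO. All 8 libraries of Cic-L-KO lay above all WT libraries (log2 fold change 1.42, SE 0.25), and the highest WT library, replicate 1, lay closest to them. In cortex Cpne4 stood between 62.2 and 85.8 CPM (median 74.7) in WT, between 75.9 and 86.6 (median 80.1) in Cic-S-KO, and between 53.0 and 82.5 (median 61.6) in Cic-L-KO. The cortex groups overlapped, with a log2 fold change of -0.20 (SE 0.086) in Cic-L-KO. The effects in cortex and cerebellum had opposite signs and differed by -1.62 (SE 0.24).

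Zfp365 (ENSMUSG00000037855.15, chromosome 10, 67886103 to 67912662, minus strand) was higher in Cic-L-KO lung and lower in Cic-L-KO cortex. In lung it stood between 13.7 and 17.6 CPM (median 15.4) in WT, between 11.4 and 16.6 (median 14.7) in Cic-S-KO, and between 22.6 and 29.5 (median 24.1) in Cic-L-KO. Every Cic-L-KO lung library exceeded every WT and Cic-S-KO library (log2 fold change 0.67, SE 0.074 against WT, beside -0.10, SE 0.074 in Cic-S-KO). Of all genes tested in lung, 0.587% lay wholly above WT in Cic-L-KO. Lung libraries chose Zfp365, so nothing is read from that share. In cortex Zfp365 stood between 812 and 977 CPM (median 916) in WT, between 660.5 and 903 (median 811) in Cic-S-KO, and between 677 and 807 (median 782) in Cic-L-KO. All 8 Cic-L-KO cortex libraries lay below WT (log2 fold change -0.23, SE 0.049), by a margin that was small beside the level. In cerebellum Zfp365 stood between 71.2 and 97.8 CPM (median 77.6) in WT, between 78.3 and 100.3 (median 88.2) in Cic-S-KO, and between 74.8 and 97.0 (median 86.4) in Cic-L-KO, where the groups overlapped (log2 fold change 0.089, SE 0.064 in Cic-L-KO).

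**Figure D3:**
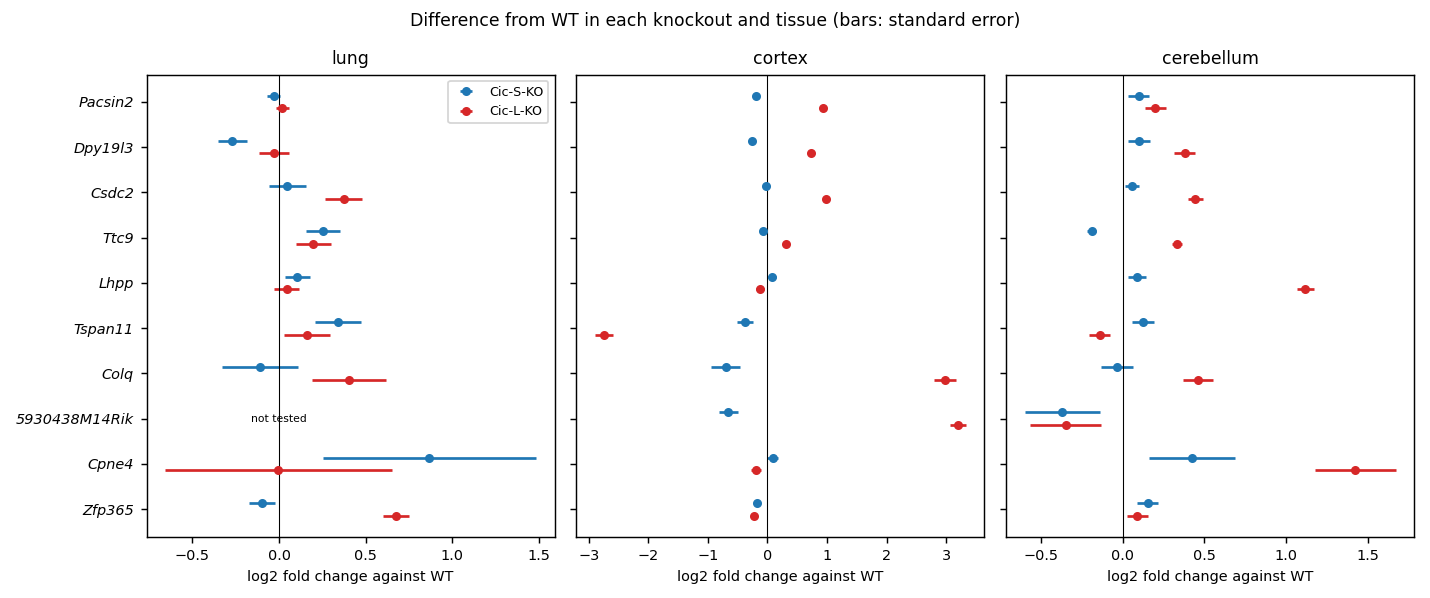
Log2 fold change against WT of the 10 genes in lung, cortex and cerebellum, for Cic-S-KO (blue) and Cic-L-KO (red), with the SE as a bar; the axes differ between tissues. The Cic-L-KO points of cortex reach 3.20 for 5930438M14Rik and -2.75 for Tspan11, while the Cic-S-KO points there lie between -0.70 and 0.09.

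The ranks by which the genes were chosen had close neighbours. In cortex between the knockouts, the fourth smallest p-value belonged to 5930438M14Rik itself (log2 difference -3.86, Cic-S-KO minus Cic-L-KO), next to Csdc2 (-1.001, SE 0.038). In cerebellum it belonged to Rasal1 (1.74), next to Ttc9 (-0.52, SE 0.031), and in lung to Lmo7 (-0.45), next to Zfp365 (-0.77, SE 0.074). By fold change against WT, among the genes past the threshold and above the floor on mean level, Tspan11 was the sixth in Cic-L-KO cortex. Gm15083 was the sixth in Cic-L-KO cerebellum (-1.37), after Cpne4.

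Loss of the short isoform was then examined where the libraries had not chosen the gene. In cortex, of the 4 such genes (Lhpp, Ttc9, Cpne4 and Zfp365), Zfp365 alone passed, beside 6.53% of all genes. It fell by 0.18 on the log2 scale (SE 0.051, adjusted p = 0.0356, edgeR), with 4 of 7 Cic-S-KO libraries below all WT libraries. That call was lost when genes of low count were kept (adjusted p = 0.0751) and when the fit held only the compared groups (adjusted p = 0.0774), and also without any 1 of 7 single libraries (WT 1, 3, 6 and 8, and Cic-S-KO 3, 6 and 7), where adjusted p reached 0.0938 (edgeR). In the same comparison 2 of 8 oligodendrocyte markers rose, with summed levels of 5110.3 to 7756 CPM in Cic-S-KO and 4774 to 6653 CPM in WT, and their part in the Zfp365 result was not tested. The library with the least Zfp365 in each cortex group was also rich in choroid plexus markers. These were Cic-S-KO 6 at 660.5 CPM (markers summed to 622 CPM), Cic-L-KO 6 at 677 CPM (643) and WT 2 at 812 CPM (420). WT 6, with a sum of 591 CPM, had 913 CPM of Zfp365, and the part of choroid plexus was not tested. The other 3 genes did not pass: Ttc9 stood at -0.069 (SE 0.033, adjusted p = 0.214), Lhpp at 0.075 (SE 0.074, adjusted p = 0.595) and Cpne4 at 0.088 (SE 0.088, adjusted p = 0.605, edgeR).

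For loss of the short isoform in cerebellum, 0 of 6 genes passed (edgeR), beside 8.23% of all genes, and 1 had an unadjusted p under 0.05. That gene was Zfp365, at a log2 fold change of 0.15 (SE 0.066, adjusted p = 0.152, edgeR), and without WT 1 it passed (adjusted p = 0.0381). The others were Pacsin2 at 0.10 (SE 0.064), Dpy19l3 at 0.10 (SE 0.067), Csdc2 at 0.058 (SE 0.045), Colq at -0.035 (SE 0.096) and 5930438M14Rik at -0.37 (SE 0.23). The labels do not say whether cortex and cerebellum libraries with the same number share an animal. The names of the Cic-S-KO libraries leave out the same number in both regions, which hints that they do. If so, tests in 1 region of genes chosen in the other are not independent of that choice. The adjusted p of these 5 genes lay between 0.334 and 0.865 (edgeR). Among the described contrasts, libraries wholly below WT were seen for Pacsin2 and Dpy19l3 in Cic-S-KO cortex (0.524% of all genes) and for Ttc9 in Cic-S-KO cerebellum (0.469% of all genes). The same Cic-S-KO libraries helped choose these genes, so nothing is read from those shares.

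Lung had not chosen any of the genes except Zfp365, and 8 of the 10 genes could be tested there. Loss of the long isoform gave 1 call among 8 tested genes, beside 4.89% of all genes. It was Csdc2, which in lung stood between 7.84 and 12.6 CPM (median 10.5) in WT, between 7.29 and 12.9 (median 10.7) in Cic-S-KO, and between 12.1 and 16.0 (median 13.0) in Cic-L-KO. It rose in Cic-L-KO by 0.37 (SE 0.11) on the log2 scale (adjusted p = 0.0380, edgeR), with 6 of 8 libraries above all WT libraries, so the groups overlapped. The call was lost without any 1 of 9 single libraries (WT 1, 2, 5, 6 and 7, and Cic-L-KO 1, 4, 6 and 8), with adjusted p up to 0.0854 (edgeR). In Cic-L-KO lung 3 of 5 alveolar type 1 markers rose too, at summed levels of 2178 to 2541 CPM against 1786 to 2129.5 CPM in WT. So did 3 of 7 genes from the list for microglia, which are cells of the brain. Of 4 tested macrophage markers 0 passed (median log2 fold change 0.31). The part of these lists in the Csdc2 result was not tested.

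The 7 other tested genes did not pass in Cic-L-KO lung. Pacsin2, which had its highest level of the 3 tissues in lung, stood there between 148 and 173 CPM (median 159) in WT, between 146 and 169 (median 156) in Cic-S-KO, and between 153 and 172 (median 160.4) in Cic-L-KO. The fitted log2 fold change was 0.018 (SE 0.038) in Cic-L-KO and -0.031 (SE 0.038) in Cic-S-KO. Colq stood at 0.40 (SE 0.22, adjusted p = 0.295), Ttc9 at 0.20 (SE 0.099, adjusted p = 0.256) and Tspan11 at 0.16 (SE 0.13, adjusted p = 0.5259, edgeR). Lhpp, Dpy19l3 and Cpne4 had log2 fold changes between -0.03 and 0.05. Cpne4 held 5 to 16 counts per WT lung library, and its SE was 0.65.

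In Cic-S-KO lung Dpy19l3 alone passed among the 8, beside 15.7% of all genes. It stood in lung between 37.1 and 56.0 CPM (median 44.1) in WT, between 31.5 and 45.7 (median 38.2) in Cic-S-KO, and between 34.7 and 51.8 (median 44.6) in Cic-L-KO. It fell by 0.27 on the log2 scale (SE 0.084, adjusted p = 0.0295, edgeR), with 3 of 8 Cic-S-KO libraries below all WT libraries. The call was lost without WT 2 or 8 or Cic-S-KO 3, 4 or 6, with adjusted p up to 0.0728 (edgeR). Ttc9 (0.26, SE 0.098, adjusted p = 0.0739) and Tspan11 (0.34, SE 0.13, adjusted p = 0.0821, edgeR) had an unadjusted p under 0.05 and did not pass. Both passed without Cic-S-KO 2, Ttc9 also without WT 3, and Tspan11 also by DESeq2 (adjusted p = 0.0485). Cpne4 stood at 0.87 (SE 0.62, adjusted p = 0.355, edgeR), with 1 library (Cic-S-KO 5) at 3.57 CPM and the next at 0.704. Cic-S-KO lung also differed in cell-type markers. All 5 ciliated cell markers and 3 of 4 macrophage markers rose, with summed levels of 142 to 236 CPM against 78.0 to 128 CPM in WT for ciliated cells, and of 121 to 238 CPM against 77.4 to 101.1 CPM for macrophages. Of the endothelial markers 3 of 6 fell. The part of these lists in the Dpy19l3 result was not tested.

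How the 10 genes varied together was described over the 46 brain libraries, as Pearson r of log2(CPM + 0.5) minus the WT mean of the region. The libraries share a batch, and the differences between genotypes were left in, so r includes them. Such differences in these libraries also chose every gene but Zfp365. Large positive or negative r therefore follows in part from the choice, and nothing further is read from it. Pacsin2, Dpy19l3, Csdc2, Colq and 5930438M14Rik had r between 0.761 and 0.935 with each other. Tspan11 ran against them, down to -0.923 with 5930438M14Rik. Ttc9 had r with the same genes from 0.549 (5930438M14Rik) to 0.798 (Csdc2). Lhpp and Cpne4, the pair set apart by Cic-L-KO cerebellum, had r = 0.773 with each other and no more than 0.443 with any of the 7 others except Zfp365, where Cpne4 reached 0.523.

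**Figure D4:**
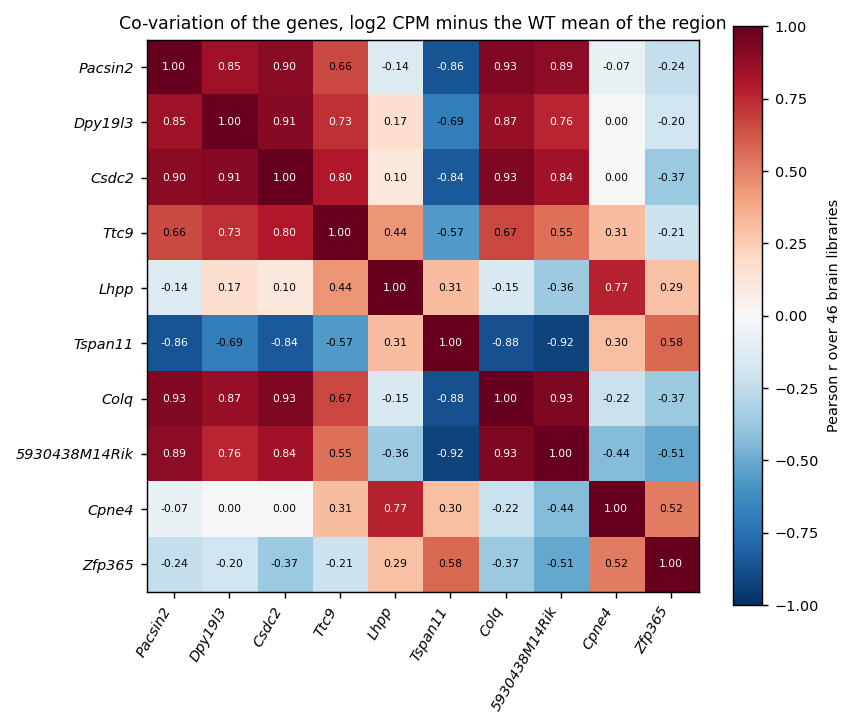
Pearson r between each pair of the 10 genes over 46 brain libraries, of log2(CPM + 0.5) minus the WT mean of the region, with red for positive and blue for negative values. A block of Pacsin2, Dpy19l3, Csdc2, Colq and 5930438M14Rik is positive throughout, and Tspan11 is negative with each of them. Genotype differences in the same libraries chose these genes.

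The genes of all 18032 whose pattern was most like each of the 10 were taken on the same measure. For Csdc2 the closest was Trim67 (r = 0.962), which encodes a tripartite motif protein. For Colq they were Ank1, an ankyrin of the membrane skeleton (r = 0.956), Ubash3b (0.955) and Apba1 (0.945). For Tspan11 they were Plxdc1 (0.953), Pamr1 (0.950) and Arpp19 (0.941), which stood at -0.997, -1.71 and -0.89 (log2) against WT in Cic-L-KO cortex. For 5930438M14Rik they were Krtap4-2 (0.953), the beta-secretase gene Bace1 (0.943) and the monoamine transporter gene Slc29a4 (0.941). Pacsin2 was closest to Syn3, a synapsin (0.935), Fbxo7 (0.930) and Colq, and Dpy19l3 to Wdr1 (0.932), Ddah1 (0.911) and Lsamp (0.910). Ttc9 was closest to Hsd17b12 (0.917), Pafah1b3 (0.910) and Magi1 (0.898), and Csdc2, after Trim67, to the microtubule protein gene Map4 (0.956) and 5033430I15Rik (0.954). Pafah1b3 lies beside Cic, and Krtap4-2 and Vmn2r2 belong to large families with near-identical copies, so their counts are uncertain. The closest genes were less alike for Lhpp (Pebp1, 0.871; Vmn2r2, 0.868; Etl4, 0.830), Cpne4 (Nfe2l1, 0.857; Cx3cl1, 0.842; Pcdh19, 0.841) and Zfp365 (Aktip, 0.842; Arnt2, 0.838; Fam169a, 0.829).

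Relatives and partners of the 10 genes were counted in 9 lists that together held 84 genes. In Cic-L-KO cortex 37 of the 78 tested relatives passed (14 higher, 23 lower), beside 43.2% of all genes. In Cic-L-KO cerebellum 21 of 75 passed (14 higher, 7 lower), beside 21.5% of all genes, and in Cic-L-KO lung 5 of 72 (4 higher, 1 lower), beside 4.89%. In Cic-S-KO 10 of 78 passed in cortex, beside 6.53% of all genes, 10 of 75 in cerebellum, beside 8.23%, and 25 of 72 in lung (13 higher, 12 lower), beside 15.7%. Relatives whose log2 fold change was under 0.5 in size are named below as examples chosen after their values were seen.

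Of the PACSIN family and its membrane-shaping partners, 2 rose and 3 fell among 11 tested in Cic-L-KO cortex (median log2 fold change -0.043, against 0.011 over all genes). Pacsin1, the neuronal paralog, fell by 0.20 and Pacsin3 by 0.41 on the log2 scale, while Dnm2, a dynamin, rose by 0.34. Of the DPY19L family, R-spondins and UNC5 receptors, 6 of 10 fell and 0 rose (median -0.30). Rspo1, which encodes R-spondin 1, stood in cortex between 9.34 and 17.8 CPM (median 11.8) in WT, between 8.47 and 14.5 (median 11.01) in Cic-S-KO, and between 1.07 and 2.60 (median 1.74) in Cic-L-KO. Its 8 Cic-L-KO libraries all lay below WT (log2 fold change -2.81, adjusted p = 2.04e-14, edgeR). Dpy19l1, a paralog of Dpy19l3, fell in Cic-L-KO cortex by 0.36 and rose in Cic-L-KO cerebellum by 0.42 (log2).

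Of 7 tested copines in Cic-L-KO cortex, 3 rose and 2 fell (median 0.092). Cpne5 stood in cortex between 92.1 and 116 CPM (median 106) in WT, between 122 and 162 (median 139) in Cic-S-KO, and between 19.1 and 38.1 (median 29.4) in Cic-L-KO, and its Cic-L-KO libraries all lay below WT (log2 fold change -1.87, adjusted p = 5.45e-11, edgeR). Cpne7 was separated the other way, between 21.6 and 47.9 CPM (median 38.6) in WT, between 31.3 and 52.5 (median 40.5) in Cic-S-KO, and between 70.7 and 92.8 (median 76.96) in Cic-L-KO (log2 fold change 1.05, adjusted p = 4.25e-06, edgeR). Cpne9 fell by 0.94 and Cpne2 rose by 0.62. In Cic-L-KO cerebellum, where Cpne4 stood apart, Cpne2 rose by 0.33 and the 6 other tested copines did not pass. Of 24 tested tetraspanins in cortex, 3 rose and 5 fell. Tspan1 rose by 1.11 (log2) and Tspan6 fell by 0.59, and none came near the difference of Tspan11. These cortex libraries helped choose Tspan11, so nothing is read from that contrast in size.

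Of the 8 genes of acetylcholinesterase anchoring and cholinergic transmission, 2 rose and 1 fell in Cic-L-KO cortex. Hspg2, which encodes the basal lamina proteoglycan perlecan, rose by 0.62 there (adjusted p = 2.93e-04, edgeR) and by 0.55 in cerebellum. Ache, which encodes acetylcholinesterase itself, rose by 0.45 and Bche, for butyrylcholinesterase, fell by 0.58 in cortex (log2). Ache was higher in Cic-S-KO cortex too, by 0.34 (adjusted p = 0.0192, edgeR). Of 6 tested cold shock domain genes 2 rose and 2 fell in Cic-L-KO cortex, with Ybx2 at 0.60. Both TTC9 paralogs fell there, Ttc9b by 0.40 and Ttc9c by 0.27, opposite in sign to Ttc9. Of the genes of the DISC1 and NDEL1 complex, Pafah1b1 and Ndel1 fell, by 0.22 and 0.14, and Disc1 rose by 0.43. Of 6 histidine phosphatases, kinases and related enzymes, Phpt1 passed in both regions, at 0.25 in cortex and -0.32 in cerebellum.

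The nearest protein-coding gene on each side was read for each of the 10 genes. Of 20 such neighbours 17 were tested in cortex, and 4 passed in Cic-L-KO (1 higher, 3 lower), beside 43.2% of all genes. Those 4 were Prmt8 (-0.47) and Tspan9 (0.37), on either side of Tspan11, Med6 (-0.15) beside Ttc9, and Pmm1 (-0.12), which lies 167 bases from Csdc2. Each differed less than the gene it flanks or in the other direction. The flanked genes were chosen for strong differences and their neighbours were not, so nothing is read from that. In Cic-L-KO cerebellum 4 of 17 passed, beside 21.5% of all genes, with log2 fold changes between -0.13 and 0.16. Both neighbours of Pacsin2, Arfgap3 (-0.11) and Ttll1 (0.076), were not past the threshold in Cic-L-KO cortex, nor were Pdcd5 and Zfp507 beside Dpy19l3. The annotated gene Gm49387, which overlaps Colq, held 0 counts in all 70 libraries.

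Some markers of other cell types also differed between the groups. Of all genes, 43.2% passed in either direction in Cic-L-KO cortex and 21.5% in Cic-L-KO cerebellum. A count of markers near those shares does not set a list apart. In Cic-L-KO cortex 2 of 6 choroid plexus markers (Clic6 and Kcne2) rose. Summed levels were 18.6 to 1306 CPM (median 413) against 21.4 to 591 CPM (median 29.1) in WT. The defining marker Ttr did not pass (adjusted p = 0.301, edgeR), although its median was 356 CPM against 18.3 CPM in WT. Libraries of both groups varied widely, so a failed test does not show like choroid plexus content. The part of these markers in the cortex differences was not tested. Of 6 tested excitatory neuron markers 4 fell in Cic-L-KO cortex, with summed levels of 5578 to 6453 CPM against 6952 to 8400.3 CPM in WT, 4 of 6 endothelial markers rose, and 3 of 6 inhibitory neuron markers rose while 1 fell. The part of these lists in the cortex differences was not tested either. In Cic-L-KO cerebellum all 6 endothelial markers rose, with summed levels of 163 to 201 CPM against 105 to 137 CPM in WT, and 4 of 5 tested inhibitory neuron markers rose. Of the mural cell markers 3 of 4 tested rose, as did 3 of 5 tested fibroblast and meningeal markers, and 2 of 6 granule neuron markers fell. The part of these lists in the cerebellum differences was not tested.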

How the data were processed

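Polyadenylated RNA of flash-frozen mouse tissue was sequenced in 70 libraries. The authors deposited raw counts per gene. STAR 2.7 and GRCm38.p6 are named per the submitters' processing notes, while the counter, annotation and strand setting are not given in the sources used here. Of 50789 gene identifiers 50725 matched GENCODE M21 (version suffix ignored), which gave symbols, positions and exon lengths, and 64 did not. Of 238 replicate pairs 0 were identical.

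Each tissue was fitted with edgeR 4.0.16 in R 4.3.3 (filterByExpr, TMM, robust quasi-likelihood test), giving 16695 genes in lung, 16974 in cortex and 16643 in cerebellum. A fit over the 46 brain libraries (18032 genes) gave regional differences. P-values were adjusted over all genes by Benjamini-Hochberg, with a threshold of 0.05, and SE is the log2 fold change divided by the root of F. CPM used TMM factors of the tissue, and RPKM divided CPM by exon length. Alternatives were DESeq2 1.42.0, RLE, other filters, only the compared groups, a non-robust fit, a Y-linked covariate, the replicate number as a block, and each library left out (the last added after seeing the data). The fit was tested on simulated data.

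The genes and lists were chosen with earlier results of these data known. Named besides the 10 genes were Cic, relatives with a log2 fold change of at least 0.5 in size and an adjusted p under 0.05 in Cic-L-KO (at most 4 per list and tissue), flanking protein-coding genes, and the 3 genes with the highest r for each.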

Additional observations from a re-analysis of the deposited data

Results flagged for a closer look

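Of 90 groups of values, 9 had a library set apart from the rest, where chance would set apart about 4.5. In cortex Csdc2 was lowest in WT replicate 2 at 103.8 CPM, with the next library at 116.6, and highest in Cic-S-KO replicate 1 at 128.2 CPM, with the next at 116.9. Zfp365 stood at 677.0 CPM in Cic-L-KO cortex replicate 6, below the next at 767.6, and at 29.5 CPM in Cic-L-KO lung replicate 6, above the next at 25.8. In the cerebellum of WT replicate 1, Colq was lowest at 4.47 CPM (next 6.24) and Cpne4 highest at 5.63 CPM (next 2.97). That library was also the lowest WT cerebellum library for Dpy19l3, Lhpp, Tspan11 and 5930438M14Rik. It was the highest for Pacsin2 (81.1 CPM), Zfp365 (97.8 CPM) and the summed endothelial markers (137 CPM). For Csdc2 and Ttc9 it was at neither end. The WT cerebellum ranges of the other genes thus depend at an end on that library. In lung, Tspan11 stood at 71.95 CPM in Cic-L-KO replicate 5 (next 54.7), Cpne4 at 3.57 CPM in Cic-S-KO replicate 5 (next 0.704) and 5930438M14Rik at 0.192 CPM in Cic-S-KO replicate 1 (next 0.0828).

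Zfp365 had opposite directions in 2 tissues of Cic-L-KO mice, with every lung library above WT and every cortex library below. The log2 fold changes were 0.67 and -0.23, 0.90 apart. The difference was not tested, since lung and cortex also differ in age and batch.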

How the results depend on the processing

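Over the alternatives, excluding single libraries left out, 900 values of the 10 genes kept their direction and side of the threshold or moved by less than the spread, and 0 reversed. The difference of Cpne4 between Cic-S-KO and Cic-L-KO lung went from 0.87 to 0.19 (log2) with the replicate block, and 3 values crossed the threshold (Tspan11 in Cic-S-KO lung by DESeq2, and Zfp365 in Cic-S-KO cortex under both settings named next). In Cic-S-KO lung DESeq2 called 2 genes in place of 1. In Cic-S-KO cortex 0 genes were called with no low-count filter and 0 with only the compared groups. With single libraries left out, the count was 0 to 1 in Cic-L-KO lung, 0 to 3 in Cic-S-KO lung, 0 to 1 in Cic-S-KO cortex and 0 to 1 in Cic-S-KO cerebellum, and the cause was not tested. Over the 8 other alternatives adjusted p (edgeR or DESeq2) was 0.00891 to 0.0498 for Csdc2 in Cic-L-KO lung, 0.00667 to 0.0343 for Dpy19l3 in Cic-S-KO lung and 0.0206 to 0.0774 for Zfp365 in Cic-S-KO cortex. Cpne4, at few counts in lung, ranged from -0.53 to 1.03 (log2) in Cic-S-KO lung with single libraries left out.

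With the replicate block, the counts stayed at 1, 1, 1 and 0 called genes in these 4 comparisons and at 6 between WT regions, while over all genes 591 were called in place of 1370 in Cic-S-KO cerebellum and 1285 in place of 817 in Cic-L-KO lung. The block used the replicate number of the titles. Most Cic-S-KO brain libraries carry another number in their library names, so the block does not match them to the other genotypes by name. Little can be read from the block for Cic-S-KO brain. Same-numbered cortex and cerebellum libraries had correlated deviations between -0.02 and 0.29, with a mean of 0.150. Since not every pair was over 0.1, the numbers were not taken to pair the samples. Even so, 11 of 23 cortex libraries correlated best with their own number, a hint from the data that some may be paired. The Cic-S-KO library names, which leave out the same number in cortex and cerebellum, are a further hint.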
